A study of Homo sapiens with 6 samples.

Results

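The placental steroid enzyme and hormone genes are 10 genes whose products make steroids in the placenta, or are hormones and growth factors that the placenta secretes. They are HSD3B1, CYP11A1, CYP19A1, HSD17B1, STS, STAR, FDX1, CGA, INSL4 and PGF, taken as the rows whose Ensembl identifiers carry these symbols in GENCODE release 29, and they are 10 of the 58735 genes in the table. No threshold for the choice was stated, and the list is taken here as selected on measured levels in these libraries and on known roles. The levels below are therefore a description without a test. The difference between the siRNAs was not a stated criterion, but its results were known when the list was drawn up. The libraries came from H9 cells (WA09), a line of hESCs, that were kept on a feeder layer of mouse embryonic fibroblasts and differentiated towards 3PPE, endoderm of the third pharyngeal pouch, with Activin A, WNT3A, RA, SB431542, BMP4 and IWP2. All 6 cultures received these factors, with IWP2 or IWR1 named in the methods for the last of them. The 2 groups, with 3 libraries each, received a negative control siRNA (NC, siControl in the labels, genotype WT) or a HOXA3 siRNA (Si-HOXA3, genotype HOXA3 knockdown), delivered by lipofection at day 7, with harvest at day 9. Per the methods, opti-MEM took the place of the differentiation medium some hours after delivery. A legend of the study speaks of independent biological repeats and its methods of triplicates, without saying whether the libraries of a group came from separate differentiations, so the p-values measure the spread between these libraries only.

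In the placenta, CYP11A1 cuts the side chain of cholesterol to give pregnenolone, with electrons that FDX1 carries from FDXR, and HSD3B1 turns pregnenolone into progesterone. STS removes sulfate from steroids that arrive from the fetal adrenal gland, and HSD3B1, CYP19A1 (aromatase) and HSD17B1 complete the route to oestradiol. CGA encodes the alpha subunit that chorionic gonadotropin shares with LH, FSH and TSH, INSL4 is an insulin-like peptide of the early placenta, and PGF is a growth factor of the VEGF family.

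Total counts ranged from 14117150 to 15282307 per library, and expression is given as CPM, counts scaled to the size of the library. The floor of 3 counts, which a gene without any count could still have, came to 0.196 to 0.211 CPM and covers counting error only. Values with ± are means with the SD over the libraries of a group (n = 3), and fold changes (Si-HOXA3 over NC) carry the standard error (SE). The test was the quasi-likelihood test of edgeR, a model of counts, with p adjusted over all 16561 genes with enough counts and a threshold of 0.05. Positions of genes are on GRCh38. HOXA3, the targeted gene, had 248, 240 and 236 counts in NC, against 159, 199 and 220 in Si-HOXA3, and the groups overlapped in CPM (log2 fold change -0.27 ± 0.157 SE, edgeR adjusted p = 0.828). Si-HOXA3 replicate 2 stood apart: the chi-square per degree of freedom was 40.1 and 44.2 against the other Si-HOXA3 replicates, and 5.58 to 11.7 in the 4 other pairs within a group. The fold changes of the tested members are therefore given without it too, and that of HOXA3 was then -0.28. Of 9 marker genes of the third pouch endoderm, PAX1, FGF8 and FOXA2 had at most 3 counts in every library, while EPCAM, an epithelial surface protein, had 252 to 385 CPM. The label of the cells is therefore not borne out by all of its defining markers. Among 10 cytotrophoblast markers 8 had enough counts for the test, KRT7, PEG10 and GATA3 with the highest means, while PAGE4 had no count, ELF5 had 1 to 7 and TP63 had 11 to 29 counts per library. The list summed to 1743 to 1794 CPM in NC and 1731 to 1770 CPM in Si-HOXA3. KRT7, PEG10 and GATA3, with means of 661, 581 and 290.4 CPM in NC, made up most of that sum.

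The promoters of HSD3B1 and CGA are shown because these are the enzyme gene with the smallest p between the siRNAs and the most abundant of the hormone genes. Each is the 250 bases before a RefSeq start on GRCh38.p14, written 5′ to 3′ on the strand of the gene, with capitals for GATA motifs (AGATAA and TGATAA) and for the cAMP response element (TGACGTCA), all searched on both strands. HSD3B1 lies on the plus strand with its window at chr1:119506953-119507202, and CGA on the minus strand with its window at chr6:87095107-87095356.
HSD3B1: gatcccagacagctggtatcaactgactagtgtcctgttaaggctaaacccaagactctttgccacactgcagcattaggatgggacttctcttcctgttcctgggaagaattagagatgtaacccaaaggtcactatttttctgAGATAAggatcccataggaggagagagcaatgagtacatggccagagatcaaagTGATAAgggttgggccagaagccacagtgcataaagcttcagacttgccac
CGA: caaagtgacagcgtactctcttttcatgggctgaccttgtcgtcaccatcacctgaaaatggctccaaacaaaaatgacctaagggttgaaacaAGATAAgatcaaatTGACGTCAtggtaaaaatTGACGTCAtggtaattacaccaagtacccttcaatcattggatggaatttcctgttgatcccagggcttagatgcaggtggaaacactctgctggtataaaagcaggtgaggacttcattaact
The HSD3B1 window held 1 AGATAA, 105 bases before the start, and 1 TGATAA, 51 bases before it. The CGA window held 2 copies of the cAMP response element, starting 142 and 124 bases before the start, 1 AGATAA 156 bases before it, and 1 copy of TAATTA, a core that many homeodomain proteins bind, 113 bases before it and not overlapping the others. The cAMP response element occurred in 1.65% of the 35116 promoter windows of the same length, and 2 or more copies in 0.0541%. AGATAA occurred in 9.17%, TGATAA in 6.66% and TAATTA in 4.35% of them. The TEAD motif GGAATG, present in 11.9% of windows, was in neither. RefSeq entries were found for 8 of the 10 genes. HSD3B1 has 2 entries, and the windows of both hold the same 2 GATA motifs. CYP19A1 has 7 entries, and counts per gene do not tell its starts apart.

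Expression per kilobase of the principal transcript placed the 10 genes in a wide order. STS was the highest, at 82.9 to 92.2 CPM per kilobase over the 6 libraries, and HSD3B1 followed at 52.0 to 76.6. In NC, STS lay at percentile 95.9 and HSD3B1 at percentile 94.9 of the 13431 tested genes with a principal transcript. CGA (8.42 to 19.8 CPM per kilobase) and FDX1 (7.74 to 14.9) came next, and their ranges overlapped. They were at percentiles 69.3 and 55.2. PGF (4.77 to 7.33) lay below both, at percentile 43.3. CYP19A1 (1.37 to 2.69), CYP11A1 (1.16 to 2.42) and HSD17B1 (0.732 to 1.47) formed the lower end of the tested genes, at percentiles 23.0, 21.1 and 16.7, and each range overlapped that of its neighbour in this order. STAR reached at most 0.328 and INSL4 at most 0.0686 CPM per kilobase, and these 2 ranges overlapped as well. Division by the merged exons in place of the principal transcript put FDX1 (11.0) above CGA (6.57) and HSD17B1 (1.03) and CYP11A1 (1.02) above CYP19A1 (0.981). For HSD17B1 both lengths (4982 and 5658 bases) come near the whole span of the gene. A shorter transcript would raise its level per kilobase and could change its place.

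**Figure D1:**
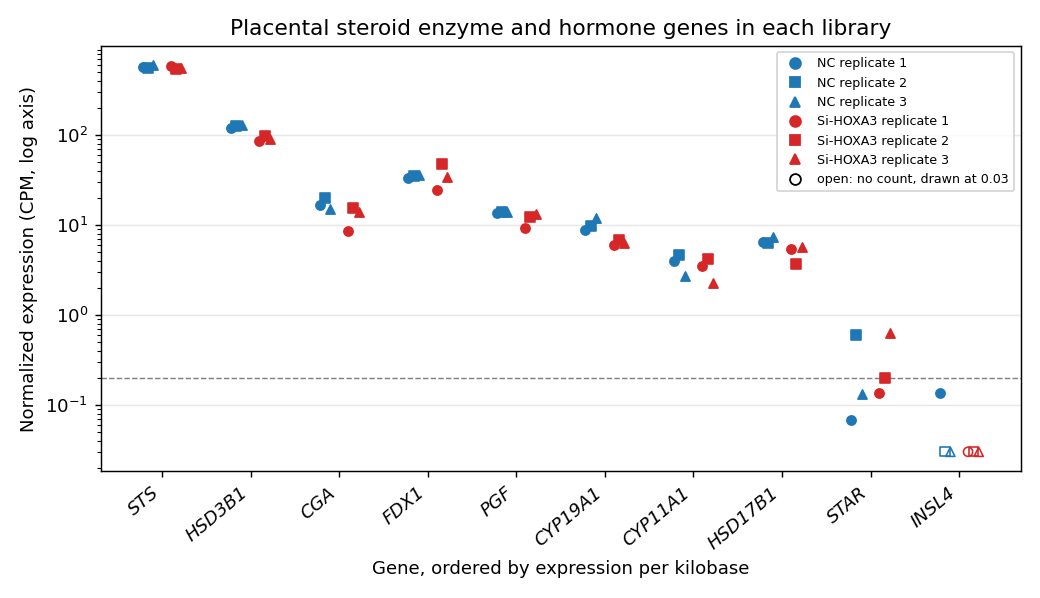
Normalized expression (CPM, log axis) of the 10 genes in each of the 6 libraries, with NC in blue and Si-HOXA3 in red, the marker shape giving the replicate, and the dashed line a count of 3. STS lies between 540.4 and 601.1 CPM, the 3 red points of HSD3B1 and of CYP19A1 lie below the 3 blue ones, and STAR and INSL4 lie around or under the dashed line.

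The supply of cholesterol and the first enzyme differed widely in level. STAR, which brings cholesterol into mitochondria in the adrenal gland and gonads (ENSG00000147465, chromosome 8 from 38143649 to 38151265 on the minus strand), gave 1, 9 and 2 counts in NC, against 2, 3 and 9 in Si-HOXA3. Both groups spanned the count of 3, too few counts for the test. STARD3, a related transporter that the human placenta uses, had 34.6 ± 4.11 CPM in NC against 35.3 ± 1.99 CPM in Si-HOXA3. CYP11A1 (ENSG00000140459, chromosome 15 from 74337759 to 74367740 on the minus strand) had 3.95, 4.68 and 2.74 CPM in NC, against 3.497, 4.18 and 2.25 in Si-HOXA3. Its groups overlapped, with Si-HOXA3 replicate 3 the lowest and NC replicate 2 the highest library (log2 fold change -0.19 ± 0.297 SE, edgeR adjusted p = 0.920, and -0.40 without Si-HOXA3 replicate 2), and 23.8% of its 50-base stretches also occur in other annotated genes, in part on the opposite strand, so its counts are uncertain. FDX1 (ENSG00000137714, chromosome 11 from 110429883 to 110464881, plus strand) had 33.6, 35.3 and 36.5 CPM in NC, against 24.8, 47.8 and 33.9 in Si-HOXA3. Si-HOXA3 replicate 1 was the lowest and replicate 2 the highest of all 6 libraries. The log2 fold change of FDX1 was 0.02 ± 0.194 SE (edgeR adjusted p = 0.988) and -0.26 without Si-HOXA3 replicate 2 (adjusted p = 0.481). FDXR, its reductase, had 48.4 ± 2.37 CPM in NC against 55.1 ± 10.6 CPM in Si-HOXA3.

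HSD3B1 (ENSG00000203857, chromosome 1 from 119507198 to 119515054, plus strand) had its 3 lowest values in the Si-HOXA3 libraries. It had 1813, 1899 and 1965 counts in NC, against 1270, 1478 and 1287 in Si-HOXA3. Its expression was 125 ± 3.52 CPM in NC against 91.8 ± 5.64 CPM in Si-HOXA3, 26.5% lower. The log2 fold change was -0.44 ± 0.0952 SE. edgeR gave an unadjusted p of 0.000661 and an adjusted p of 0.458, so the gene did not pass 0.05. It passed with DESeq2 (adjusted p = 0.0315), with limma-voom and sample quality weights (adjusted p = 0.0203) and with edgeR without Si-HOXA3 replicate 2 (log2 fold change -0.50, adjusted p = 0.00676). These analyses called 38 (0.229%), 47 (0.284%) and 24 (0.14%) of the genes they tested, and HSD3B1 was among them each time. Its adjusted p spanned 0.00676 to 0.997 under the alternatives. An exact permutation test of 3 libraries against 3, two-sided, gave p = 0.1, the smallest that this design allows, and so it did for CYP19A1, HSD17B1 and PGF. In these cultures a smaller number of cells that express the gene and a lower expression per cell cannot be told apart, here and for the genes below. HSD3B2, the close copy of HSD3B1 used by the adrenal gland and gonads, had 1 count in all 6 libraries together, and 5.69% of the 50-base stretches of HSD3B1 occur in HSD3B2 and pseudogenes of the family.

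Of the enzymes of the oestrogen route, CYP19A1 and HSD17B1 did not overlap between the groups, and STS did. CYP19A1 (ENSG00000137869, chromosome 15 from 51208057 to 51338610 on the minus strand) gave 131, 149 and 182 counts in NC, against 88, 104 and 89 in Si-HOXA3. Its expression was 10.2 ± 1.59 CPM in NC against 6.39 ± 0.451 CPM in Si-HOXA3, 37.1% lower with no overlap between the groups. The log2 fold change was -0.67 ± 0.180 SE (unadjusted p = 0.00345, edgeR adjusted p = 0.549), the largest in size of the 8 tested genes, and it passed an adjusted p of 0.05 under no alternative (0.108 to 0.997). It was -0.73 without Si-HOXA3 replicate 2. HSD17B1 (ENSG00000108786, chromosome 17 from 42549214 to 42555213, plus strand) had 6.56, 6.33 and 7.32 CPM in NC, against 5.42, 3.65 and 5.76 in Si-HOXA3. Each Si-HOXA3 library was below each NC library (log2 fold change -0.45 ± 0.218 SE, edgeR adjusted p = 0.784), and Si-HOXA3 replicate 2 was the lowest. Without that library the log2 fold change of HSD17B1 was -0.27 (edgeR adjusted p = 0.684). Of its 50-base stretches 31.6% occur in other genes, among them the neighbouring pseudogene HSD17B1P1, so the counts of both are uncertain. The summed counts of HSD17B1 and HSD17B1P1 were 147, 156 and 151 in NC and 121, 81 and 146 in Si-HOXA3, and in CPM this sum overlapped between the groups (10.0 ± 0.249 and 7.97 ± 2.46, SD, n = 3 each). STS (ENSG00000101846, chromosome X from 7219456 to 7354810, plus strand) had 569.5, 558.6 and 601.1 CPM in NC, against 593.6, 540.4 and 567.3 in Si-HOXA3. The groups overlapped, with a log2 fold change of -0.02 ± 0.103 SE (edgeR adjusted p = 0.970), and 0.0073 without Si-HOXA3 replicate 2. SUMF1, which activates sulfatases, had 37.3 ± 2.96 CPM in NC against 39.2 ± 6.53 CPM in Si-HOXA3.

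CGA was present in every library while most genes of its beta subunit partners had few counts or none. CGA (ENSG00000135346, chromosome 6 from 87085498 to 87095406 on its minus strand) gave 251, 303 and 233 counts in NC, against 124, 236 and 197 in Si-HOXA3. Its expression was 17.3 ± 2.42 CPM in NC against 12.7 ± 3.72 CPM in Si-HOXA3, and the groups overlapped, since NC replicate 3 (15.2 CPM) was under Si-HOXA3 replicate 2 (15.7 CPM). The log2 fold change was -0.45 ± 0.212 SE (edgeR adjusted p = 0.781), -0.64 without Si-HOXA3 replicate 2 (adjusted p = 0.242) and -0.23 without Si-HOXA3 replicate 1. The beta subunit genes CGB1, CGB2, CGB3, CGB5 and CGB8 had together 2, 2 and 0 counts in NC, against 2, 3 and 3 in Si-HOXA3. Of the 50-base stretches of these genes 59.7% (CGB2) to 86.3% (CGB1) also occur in other genes. Since the handling of shared reads is not given, their levels are uncertain. CGB7 had 18, 36 and 18 counts in NC, against 27, 35 and 19 in Si-HOXA3, and 58.2% of its 50-base stretches occur in other genes of the cluster. FSHB and TSHB, the beta subunits of FSH and TSH, had no count in any library. LHB, the beta subunit of LH, had 2, 2 and 0 counts in NC, against 1, 1 and 5 in Si-HOXA3. FSHR, the receptor of FSH, had 10.6 ± 2.14 CPM in NC against 9.79 ± 2.34 CPM in Si-HOXA3, with 120 to 187 counts per library.

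INSL4 (ENSG00000120211, chromosome 9 from 5231419 to 5235304, plus strand) had 2 counts in NC replicate 1 and none in the other 5 libraries, so no difference was detectable at this depth. PGF (ENSG00000119630, chromosome 14 from 74941834 to 74955784, minus strand) had 13.7, 14.05 and 14.1 CPM in NC, against 9.19, 12.2 and 13.1 in Si-HOXA3. The NC libraries lay close together and above each Si-HOXA3 library (log2 fold change -0.28 ± 0.164 SE, edgeR adjusted p = 0.828). The log2 fold change of PGF was -0.14 without Si-HOXA3 replicate 1, its lowest library, and -0.32 without Si-HOXA3 replicate 2. FLT1, the receptor of PGF, had 12.9, 11.8 and 10.9 CPM in NC, against 9.05, 8.89 and 5.76 in Si-HOXA3 (log2 fold change -0.58 ± 0.196 SE, edgeR adjusted p = 0.710), and FLT1 did not overlap between the groups either. It was named after its values were seen. Of the 8 tested receptors and relatives of the hormone genes 1, FLT1, was lower without overlap, as were 6.89% of all genes tested.

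**Figure D2:**
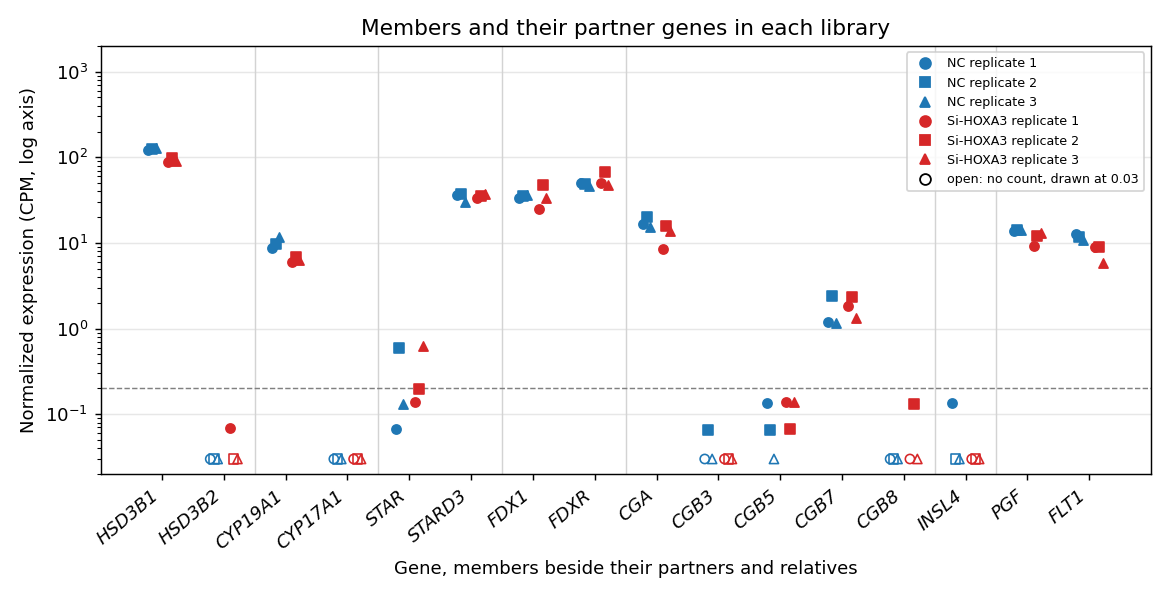
Normalized expression (CPM, log axis) of 7 of the 10 genes beside their relatives and partners in each library, with colours and shapes for group and replicate, a dashed line at a count of 3, and open markers for libraries with no count. HSD3B2, CYP17A1, CGB3, CGB5, CGB8 and INSL4 lie under the dashed line in every library, while HSD3B1, CGA and STARD3 lie well above it.

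Of the 8 tested genes 7 had a negative and 1 a positive log2 fold change, with a median of -0.36 beside a median of 0.00 over all genes tested. With edgeR 0 of the 8 reached an adjusted p under 0.05, where 0.00604% of all genes did, 1 passed with DESeq2, and 2 (HSD3B1 and CYP19A1) had an unadjusted p under 0.05 with a lower level in Si-HOXA3, as 2.57% of all genes did. HSD3B1, CYP19A1, HSD17B1 and PGF, 4 of the 8, did not overlap between the groups and were lower in Si-HOXA3, as were 6.89% of all genes tested. Higher without overlap were 0 of the 8, and 1056 of the 16561 genes tested. As the genes were chosen with the results known, these counts support nothing beyond the description. The median was -0.36 without Si-HOXA3 replicate 2 too. Si-HOXA3 replicate 1 was the lowest Si-HOXA3 library for 5 of the 8 genes, replicate 2 for 2 and replicate 3 for 1. The median deviation from the NC mean was -0.505, -0.159 and -0.257 in Si-HOXA3 replicates 1, 2 and 3, on the scale of log2(CPM + 0.5).

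**Figure D3:**
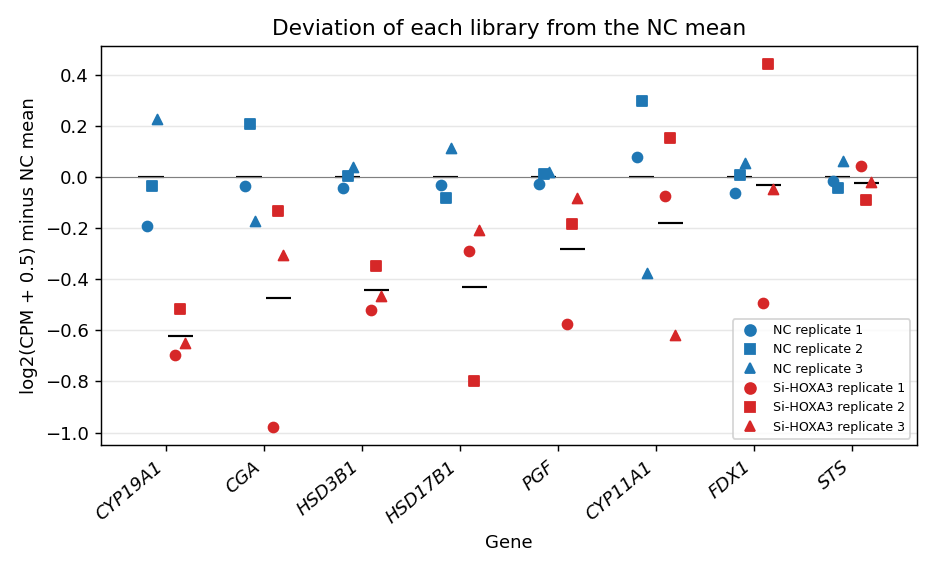
Deviation of each library from the NC mean for the 8 tested genes, as log2(CPM + 0.5), with NC in blue, Si-HOXA3 in red, the marker shape giving the replicate and the black bars the group means. The red points of CYP19A1, HSD3B1, HSD17B1 and PGF all lie below the blue ones, those of CGA and CYP11A1 overlap them, and FDX1 has 1 Si-HOXA3 library far above and 1 far below zero.

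**Figure D4:**
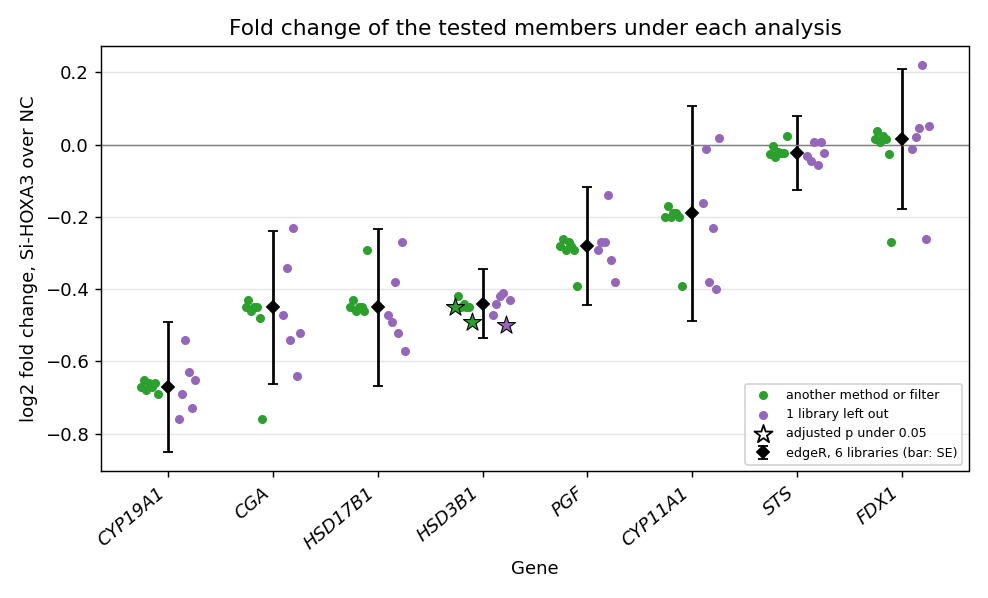
The log2 fold change of Si-HOXA3 over NC for the 8 tested genes, with edgeR and all libraries as diamonds (bars give the standard error), other methods, filters and the replicate block in green, each library left out in purple, and stars for an adjusted p under 0.05. Only HSD3B1 carries stars, 3 of them, and CYP11A1, STS and FDX1 have points on both sides of zero.

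Markers of syncytiotrophoblast, the hormone-making layer of the placenta, were barely apart between the groups as a sum. The 12 genes of that list came to 42.7 to 48.6 CPM in NC and 37.8 to 42.5 CPM in Si-HOXA3, a difference whose part in the results above was not tested. Of the 5 tested markers 4 were lower and 1 higher, with a median log2 fold change of -0.08 and 0 called. Among them 1 was lower in Si-HOXA3 without overlap between the groups, as were 6.89% of all genes tested. CSH1 had no count in any library, and 5 of the 12, CSH1 included, had at most 3 counts in every library. Of the 50-base stretches of CSH1 70.5% occur in other genes, so its level is uncertain. SDC1, the most abundant, overlapped between the groups with 29.4 ± 3.02 CPM in NC against 27.7 ± 2.91 CPM in Si-HOXA3. Of the 9 markers of adrenal and gonadal steroid cells 8 had at most 3 counts in every library, NR5A1, CYP17A1 and HSD3B2 among them, and FSHR made up nearly all of their sum.

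The rest of the steroid pathway was present in part and gave no call. Of 11 genes of cholesterol supply all were tested and 0 were called, with 7 lower and 4 higher and a median log2 fold change of -0.05. STARD4, a cytosolic cholesterol carrier, had 173 ± 15.5 CPM in NC against 153 ± 13.8 CPM in Si-HOXA3. NPC2, which moves cholesterol out of lysosomes, had 225 ± 10.2 CPM in NC against 273 ± 73.7 CPM in Si-HOXA3, with 348 CPM in Si-HOXA3 replicate 2. Of 6 redox partners 5 were tested, all with a positive log2 fold change, a median of 0.16 and 0 called, and the median was 0.08 without Si-HOXA3 replicate 2. The sum of the 6 genes did not overlap between the groups and was higher in Si-HOXA3, at 314.6 to 348.9 CPM in NC and 357.5 to 370.5 CPM in Si-HOXA3. Taken singly, 0 of the 5 tested genes were without overlap, and no rate for sums of other genes was computed. CYB5R3 (100.3 CPM in NC, 113.1 CPM in Si-HOXA3) and H6PD (91.0 and 93.2 CPM) had the highest means in this sum. FDX2 had at most 3 counts in a library, and 59.4% of its 50-base stretches occur in genes that overlap it, so its level is uncertain. Of 35 other steroid enzymes 20 were tested, 10 lower and 10 higher, with a median of 0.01 and 0 called. HSD17B4, an enzyme of peroxisomes, had 121 ± 2.83 CPM in NC against 123 ± 9.25 CPM in Si-HOXA3, the highest mean of that list. CYP17A1, which makes androgens in the adrenal gland and gonads, and SULT1E1, which adds sulfate to oestrogens, had no count in any library, so each lay under 0.211 CPM. Without Si-HOXA3 replicate 2 the median of these enzymes was -0.12.

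Of 41 other placental hormones and their partners 10 were tested and 0 were called, 2 lower and 8 higher, with a median log2 fold change of 0.11 that was -0.13 without Si-HOXA3 replicate 2. In this list 23 genes had at most 3 counts in every library, CSH1 among them, and 14 had none at all. PAPPA2, a protease that cuts IGF-binding proteins, had 145, 144 and 172 CPM in NC, against 250.5, 136 and 235.5 in Si-HOXA3 (log2 fold change 0.43 ± 0.193 SE, edgeR adjusted p = 0.773). Without Si-HOXA3 replicate 2, which lay below all NC libraries, PAPPA2 passed with edgeR (0.66, adjusted p = 0.00102). FST, which binds activin, had 96.2 ± 13.2 CPM in NC against 105 ± 12.8 CPM in Si-HOXA3. INHBA, the activin A subunit, had 28.8 ± 3.81 and 40.9 ± 4.78 CPM with no overlap between the groups (log2 fold change 0.51 ± 0.136 SE, edgeR adjusted p = 0.544). PAPPA, another protease of IGF-binding proteins, had 8.73 ± 0.482 CPM in NC against 6.28 ± 1.04 CPM in Si-HOXA3, lower without overlap (log2 fold change -0.47 ± 0.186 SE, edgeR adjusted p = 0.729). TAC3, which encodes neurokinin B, was at -0.58 ± 0.311 SE with overlap (edgeR adjusted p = 0.813). PAPPA and TAC3, the 2 lower genes of the 10 tested, were named after their values were seen. GDF15 had 16.45 ± 2.81 CPM in NC against 20.89 ± 0.209 CPM in Si-HOXA3, higher without overlap (log2 fold change 0.34 ± 0.149 SE, edgeR adjusted p = 0.761). Among the 15 receptors and relatives of the hormone genes 8 were tested, 7 lower and 1 higher, with a median of -0.20 and 0 called, and that median was -0.03 without Si-HOXA3 replicate 2. NRP2, a coreceptor of the VEGF family, had the highest mean of these, with 158 ± 6.44 CPM in NC against 138 ± 31.6 CPM in Si-HOXA3.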

How the data were processed

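The 3 NC and 3 Si-HOXA3 libraries of day 9 were sequenced by the LM-Seq protocol with single reads per the methods, while the labels also name a SMARTER kit. The authors deposited raw counts of reads per gene, as whole numbers without normalization. The aligner, the counting program and the handling of shared reads and of strand are not given in the sources used here. The submitters' processing notes list GRCm 38 and mm 10, both mouse builds, although all 58735 identifiers were found in the human GENCODE release 29 on GRCh38, which gave symbols, positions, lengths and 50-base stretches. RefSeq promoters are of GRCh38.p14. No genome sequence was used.

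The test was the robust two-sided quasi-likelihood test of edgeR 4.0.16 under R 4.3.3, after filterByExpr and TMM. Benjamini-Hochberg adjustment ran over all 16561 genes kept. No count was present for 24222 genes. CPM values are counts scaled to the TMM-normalized library size. Expression per kilobase used the longest transcript of the best APPRIS principal level. Alternatives were a block for the replicate number, DESeq2 1.42.0, scaling by upper quartile or by library size alone, a filter of 1 CPM in 3 libraries, no filter beyond 1 count, limma 3.58.1 voom with quality weights, and each library left out. No 2 libraries of a group agreed within sampling noise. Total counts per library bounded the precision, with 3 counts as the floor. The members and lists were chosen with earlier results of these data known. The named genes were the 10 members, HOXA3, called list genes, up to 4 list genes of highest mean CPM, and the nearest genes by expression pattern. Some genes under this rule are not reported here. AKR1D1, CGB1, CGB2, CGB3, CGB5, CGB7, CGB8, CSH1, CYP17A1, FDX2, FDXR, FGF8, FLT1, FOXA2, FSHB, FSHR, HSD17B1P1, HSD3B2, LHB, NR5A1, ELF5, PAGE4, PAPPA, PAX1, STARD3, SULT1E1, SUMF1, TAC3, TP63 and TSHB were named besides, as relatives, partners or markers, in part after their values were seen.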

Additional observations from a re-analysis of the deposited data

How the results depend on the processing

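No member passed an adjusted p of 0.05 with edgeR and all libraries. The number that passed was 1, HSD3B1, with DESeq2 (log2 fold change -0.45), with limma-voom and quality weights (-0.49) and without Si-HOXA3 replicate 2 (-0.50), and 0 to 1 with each library left out. Of all genes tested, 1 passed with edgeR, 38 with DESeq2, 47 with limma-voom, 100 when low genes were kept, and 1 to 24 when each library was omitted, the most without Si-HOXA3 replicate 2. The causes were not tested. Under the same omissions STS (-0.02) lay between -0.057 and 0.0078, positive when NC replicate 3 or Si-HOXA3 replicate 2 was omitted, and was at 0.024 with limma-voom. FDX1 (0.02) lay between -0.26 and 0.22, negative when NC replicate 1 or Si-HOXA3 replicate 2 was omitted, and was at -0.27 with limma-voom. CYP11A1 ranged from -0.40 to 0.02 and was positive without Si-HOXA3 replicate 3. HSD3B1 ranged from -0.50 to -0.41, and its adjusted p was 0.997 without NC replicate 2 or 3. CYP19A1, HSD17B1, CGA and PGF kept a negative value in every analysis run. Of 104 values of the members under an alternative, 93 changed neither sign nor call. The median over the members stayed between -0.405 and -0.232. PAPPA2 passed with limma-voom (0.65) and without Si-HOXA3 replicate 2. The differences of STAR and INSL4 moved by less than the spread of the replicates in all 18 values.

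The replicate numbers mark no shared batch in the labels, and the correlation between libraries of the same number, after removing group means, was 0.158, 0.111 and -0.0714. In the fit with a replicate block, 4 genes of all tested and 0 members passed, FDX1 was at -0.027, and the other members kept their direction. Counts of 9 or fewer per library limited STAR and INSL4.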

Other observations

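Of 13 steroid receptors and regulators 10 were tested, 5 lower and 5 higher in Si-HOXA3, and 0 were called by edgeR, with a median log2 fold change of -0.10. PGRMC1, a membrane protein that binds haem and progesterone, had 204 ± 17.1 CPM in NC against 220.4 ± 39.9 CPM in Si-HOXA3, and PGRMC2, its relative, had 106 ± 11.5 and 109.6 ± 17.7 CPM. NR3C1, the glucocorticoid receptor, had 31.2 ± 3.54 and 31.6 ± 4.51 CPM. NR5A1, the factor that drives steroid enzymes in the adrenal gland and gonads, had at most 3 counts in every library. AKR1D1, which reduces steroids in the liver, had 20, 26 and 23 counts in NC, against 11, 13 and 12 in Si-HOXA3 (log2 fold change -0.88 ± 0.360 SE, edgeR adjusted p = 0.741), and it was named after its values were seen.

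CGA and CYP19A1 had the largest spread over the 6 libraries among the members with a mean of at least 100 counts. The tested genes nearest to them were found by the root mean square difference of log2(CPM + 0.5), each gene centred on its own mean, among 10946 genes. Nearest to CGA were PDXDC2P-NPIPB14P (0.131), GCSH (0.164) and CCKBR (0.166), and nearest to CYP19A1 were MANEA (0.0962), MFAP5 (0.0964) and RNF141 (0.102). The libraries of both groups enter this measure, and all 6 share their depth and normalization.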
